A study of Mus musculus with 6 samples.

Results

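Myosin is the motor protein of the thick filament of heart muscle. Each myosin carries a pair of heavy chains, which hold the motor, and each heavy chain binds an essential and a regulatory light chain at its lever arm. The 10 genes described here are the cardiac heavy chains *Myh6*, *Myh7* and *Myh7b*, the essential light chains *Myl1*, *Myl3* and *Myl4*, the regulatory light chains *Myl2* and *Myl7*, the kinase gene *Mylk3* and the thick filament gene *Mybpc3*. They were chosen by symbol, all 10 were listed among 23995 genes, and all 10 were among the 12485 genes tested, those with 1 FPKM or more in 3 or more libraries. FPKM counts fragments per kilobase of transcript, scaled to the number mapped, a level that can be set between genes of different length.

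In the adult mouse ventricle the fast alpha heavy chain of *Myh6* predominates, and the slower beta heavy chain of *Myh7* is the main one before birth and returns in part under pressure load. *Myl2* and *Myl3* are the ventricular light chains and *Myl7* and *Myl4* the atrial ones, and *Myl4* is also made in the fetal ventricle. *Mylk3* encodes the cardiac kinase that phosphorylates the regulatory light chain, and *Mybpc3* encodes cardiac myosin binding protein C, which tethers myosin heads along the thick filament.

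RNA was sequenced from hearts of mice after transverse aortic constriction (TAC), a narrowing of the aorta over a 27-gauge needle that loads the left ventricle, done at 10 to 12 weeks of age. There were 3 libraries from LTBP4-CKO mice, in which *Ltbp4* can be deleted by induction in cardiomyocytes only, and 3 from wild-type (WT) mice. All 6 libraries came from operated mice, so no value is a response to TAC. WT library names carry flox; whether those mice carried floxed alleles or Cre is not stated. The Cre driver, the inducing agent and the part of the heart taken are not given in the labels either.

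Depth recovered from low values was about 13700000, 5900000 and 6700000 fragments in LTBP4-CKO libraries 1 to 3 and about 5600000, 3700000 and 5800000 in WT libraries 1 to 3. LTBP4-CKO libraries 2 and 3 differed from each other by little more than counting noise, as did WT libraries 1 and 3, and each of these pairs was averaged and counted as 1 sample, which left 2 samples a group. *Ltbp4* itself was at 139, 199 and 195 FPKM in LTBP4-CKO libraries 1 to 3 and at 368, 248 and 357 FPKM in WT libraries 1 to 3. *Esr1*, an estrogen receptor gene, also separated the genotypes, at 1425, 781 and 758 FPKM in LTBP4-CKO libraries 1 to 3. In WT libraries 1 to 3 it was at 0, 0.202 and 0 FPKM, and the source of these reads was not tested. Of the libraries, 3 stood apart. WT libraries 1 and 3 carried genes of atrial muscle, among them *Sln*, the regulator of the atrial calcium pump, at 1857 and 1847 FPKM, against 0.684 to 5.44 FPKM in the other 4 libraries. *Mybphl*, a myosin binding protein gene of the atrium, reached 106 and 102 FPKM in this pair and at most 0.271 FPKM elsewhere. LTBP4-CKO library 1 had the highest cardiomyocyte RNA, with a summed level of 34661 FPKM over 9 cardiomyocyte markers outside the myosin genes, against 9535 and 9631 FPKM in the other LTBP4-CKO libraries and 5541 to 12878 FPKM in WT. In whole-tissue RNA, fewer cells of a type and less RNA per cell cannot be told apart. No label says that libraries came from separate animals, though each library, those of the close pairs included, has its own record and name. The p-values therefore measure only the spread between these samples.

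The heavy chain genes also host microRNAs in their introns, and these are shown because their sequences make a family that parallels the 3 heavy chains. The mature sequences are from RefSeq (GRCm38.p6), with the seed, bases 2 to 8, in capitals. The 3 microRNA genes were listed at 0 in all 6 libraries; their host genes were not, and mature microRNAs were not measured here.
miR-208a-3p, from *Myh6* (chr14:54949072-54949093, minus strand): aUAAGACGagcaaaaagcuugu
miR-208b-3p, from *Myh7* (chr14:54975710-54975731, minus strand): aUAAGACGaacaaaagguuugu
miR-499-5p, from *Myh7b* (chr2:155622893-155622913, plus strand): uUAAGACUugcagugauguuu
The *Myh6* and *Myh7* microRNAs share their seed and differ at 3 of 22 bases, and the seed of the *Myh7b* one differs from theirs at base 8 only.

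Promoter sequence is shown for *Myh6* and *Myh7*, which lie next to each other on chromosome 14, and for *Myl7* and *Myl3*, the light chains that lay at opposite ends of the libraries. Each run is the 250 bases before the RefSeq start (GRCm38.p6) nearest the deposited start of the gene, read along the gene's own strand. Whether heart transcripts begin at that start was not examined. Capitals mark any match, on either strand, to GATAA, to CATTCC, to the serum response factor motif called the CArG box, or to the MEF2 motif, and no printed matches overlap.
*Myh6* (chr14:54966608-54966857, minus strand): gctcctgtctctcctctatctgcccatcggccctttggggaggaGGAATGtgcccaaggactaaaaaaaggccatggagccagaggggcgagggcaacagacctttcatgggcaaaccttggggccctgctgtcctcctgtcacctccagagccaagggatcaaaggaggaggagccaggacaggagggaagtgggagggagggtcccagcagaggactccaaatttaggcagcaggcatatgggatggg
*Myh7* (chr14:54994550-54994799, minus strand): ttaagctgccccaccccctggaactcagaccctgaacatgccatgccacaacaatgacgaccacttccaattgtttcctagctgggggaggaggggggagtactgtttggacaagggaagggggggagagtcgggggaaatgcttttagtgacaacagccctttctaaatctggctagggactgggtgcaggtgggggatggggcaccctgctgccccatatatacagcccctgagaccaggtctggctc
*Myl7* (chr11:5898783-5899032, minus strand): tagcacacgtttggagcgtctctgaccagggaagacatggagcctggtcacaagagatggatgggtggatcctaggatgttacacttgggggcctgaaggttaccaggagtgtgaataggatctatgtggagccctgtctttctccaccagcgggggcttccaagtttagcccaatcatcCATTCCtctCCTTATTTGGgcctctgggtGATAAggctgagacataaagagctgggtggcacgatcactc
*Myl3* (chr9:110763428-110763677, plus strand): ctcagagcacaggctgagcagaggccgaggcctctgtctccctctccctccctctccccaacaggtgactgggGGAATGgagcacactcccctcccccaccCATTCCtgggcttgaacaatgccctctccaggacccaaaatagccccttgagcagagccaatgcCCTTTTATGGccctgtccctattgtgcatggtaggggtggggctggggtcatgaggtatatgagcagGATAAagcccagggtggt
The *Myl7* and *Myl3* runs each held a CArG box, GATAA and CATTCC. Of the runs not shown, that of *Mybpc3* held the MEF2 motif and GATAA, that of *Myh7b* GATAA, and those of *Myl1* and *Mylk3* CATTCC. The *Myl4* run, also not shown, held none of the motifs before the start used, and the gene has 8 annotated transcripts. Motifs were not tested against the levels of the genes. A CArG box was found in 1.47% of 32851 promoters of this length, the MEF2 motif in 2.92%, CATTCC in 12.6% and GATAA in 22.6%. *Myh6* held CATTCC once and *Myh7* held none of these letters. A match describes the sequence and is not evidence of binding.

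None of the 10 genes differed between genotypes by the test across all genes. Of the 10, 0 passed (limma, Benjamini-Hochberg adjusted p = 0.999 for each, 2 samples a group), where 0.00801% of all genes tested passed, and 0 had an unadjusted p under 0.05, as 374 of all tested genes did. Estimates were higher in LTBP4-CKO hearts for 7 genes and lower for 3, with a median log2 fold change of 0.85 on the log2(FPKM + 1) scale, against 0.04 over all tested genes. The samples of a genotype lay far apart for these genes, with a median standard error of 1.26 on the log2 scale against 0.42 over all tested genes. By library, all 3 LTBP4-CKO libraries lay above all 3 WT libraries for 1 gene, *Myl3*, where this held for 10.4% of tested genes. They lay below for 1 gene, *Myl4*, where this held for 11.5%. WT libraries 1 and 3 were the lowest 2 of the 6 libraries for 6 of the genes and the highest 2 for 3, and LTBP4-CKO library 1 was the highest for 6. How often the same held over all tested genes was not counted, here or for the marker lists below. The libraries of the WT pair are nearly alike, so they tend to rank side by side.

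**Figure D1:**
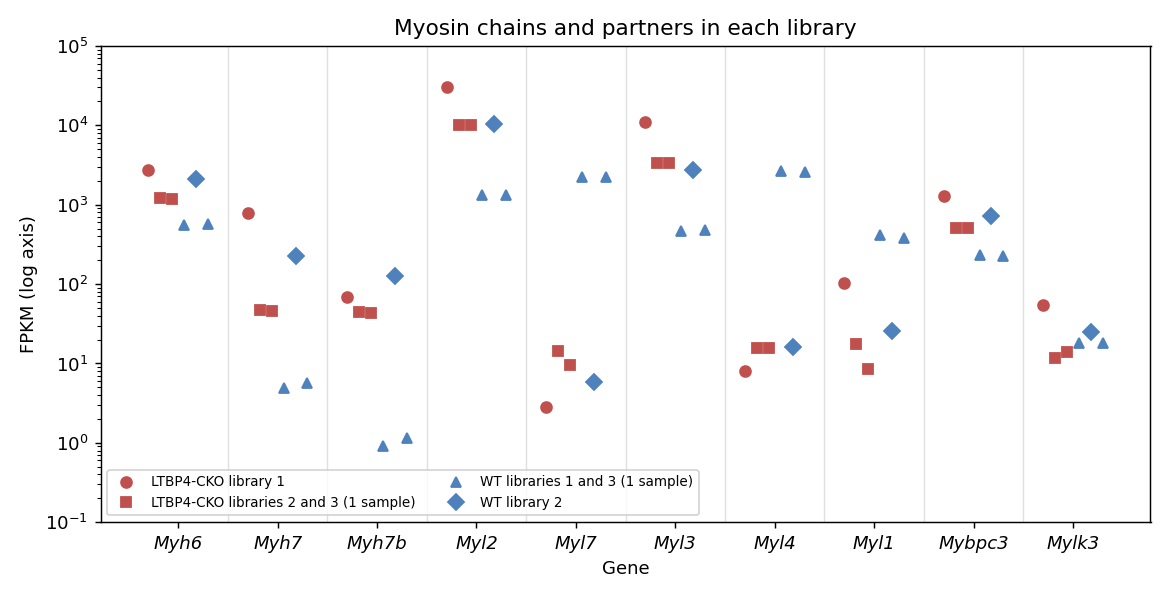
FPKM (log axis) of the 10 genes in each library, with LTBP4-CKO in red left of WT in blue, and 1 marker shape per sample, so that libraries counted together share a shape. WT libraries 1 and 3 sit at 2213 and 2221 FPKM for *Myl7*, where the other 4 libraries are between 2.82 and 14.3 FPKM.

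The main heavy chain was *Myh6* in every library. *Myh6* (chromosome 14, 54941921 to 54966927, minus strand, up to 39 exons in a transcript) was at 2711, 1199 and 1192 FPKM in LTBP4-CKO libraries 1 to 3 and at 556, 2127 and 573 FPKM in WT libraries 1 to 3. The genotypes overlapped, with LTBP4-CKO library 1 and WT library 2 high and the WT pair low. Over samples it averaged 1953 ± 1072 FPKM in LTBP4-CKO hearts and 1346 ± 1105 FPKM in WT hearts (SD, n = 2 each), a log2 fold change of 0.72 (SE 0.82) that did not pass (limma, adjusted p = 0.999).

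*Myh7*, the slow heavy chain that serves as a sign of the fetal programme in loaded mouse hearts, varied far more. *Myh7* (chromosome 14, 54970684 to 54994626, minus strand, up to 41 exons in a transcript) was at 782, 47.1 and 45.4 FPKM in LTBP4-CKO libraries 1 to 3 and at 4.89, 228 and 5.71 FPKM in WT libraries 1 to 3. LTBP4-CKO library 1 and WT library 2 were again the high ones, and the highest level was 160 times the lowest. Within LTBP4-CKO the first library stood 16.9 times above the pair, and within WT the second library stood 43.0 times above its pair. The estimate was 2.34 on the log2 scale, with an SE of 1.86 and a 95% interval of −2.12 to 6.80.

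*Myh7b*, an ancient heavy chain gene of slow and cardiac muscle, was a minor species throughout. *Myh7b* (chromosome 2, 155611212 to 155634307, plus strand) was at 68.5, 44.7 and 43.3 FPKM in LTBP4-CKO libraries 1 to 3 and at 0.916, 128 and 1.14 FPKM in WT libraries 1 to 3. WT library 2 was the highest and the WT pair the lowest, so the genotypes overlapped. At the recovered depth, *Myh7b* rested on about 30 and 39 fragments in WT libraries 1 and 3, and *Myh7* on about 163 and 197, while each had at least 1552 in the other 4 libraries.

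As a share of *Myh6* + *Myh7*, *Myh7* made up 22.4%, 3.78% and 3.67% in LTBP4-CKO libraries 1 to 3 and 0.872%, 9.67% and 0.987% in WT libraries 1 to 3. The share was thus highest in 1 LTBP4-CKO library, next in 1 WT library, and under 4% in the other 4. It averaged 13.1% ± 13.2 in LTBP4-CKO hearts and 5.30% ± 6.18 in WT hearts (SD, n = 2 each), a difference of 7.75 percentage points (exact two-sided permutation test, p = 0.667, and 0.857 adjusted over the 9 shares and ratios computed). With 2 samples a group this test cannot go below 0.333, and the adjusted p was 0.857 for every share and ratio below except the *Myh7b* share and the ratio of essential to regulatory chains, at 1.0 each. The direction rested on LTBP4-CKO library 1, and without it the difference was −1.57 percentage points. *Myh7b* made up 1.92%, 3.46% and 3.38% of all 3 heavy chains in LTBP4-CKO libraries 1 to 3, and 0.163%, 5.16% and 0.196% in WT libraries 1 to 3. The WT samples lay on both sides of the LTBP4-CKO ones, and the difference of 0.00405 percentage points was far inside their spread (exact two-sided permutation test, p = 1.0).

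*Myh6* and *Myh7* cannot be fully separated by short reads. Their main transcripts are 91.7% identical over 5802 aligned bases, and 22.6% of the 50-base windows of *Myh6* also occur in *Myh7*. The share of windows in common was 0% between *Myh7* and *Myh7b* and between each pair of light chains compared. *Myh7* also overlaps antisense RNA genes, among them *Mhrt*, and *Myh6*, *Myh7b*, *Myl2*, *Myl3*, *Myl4* and *Mylk3* each overlap a gene on the opposite strand. These overlaps are of whole gene spans, introns included, and shared exon bases were not examined. Strand is not stated to have been kept in the libraries, so reads from shared bases may not be told apart.

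**Figure D2:**
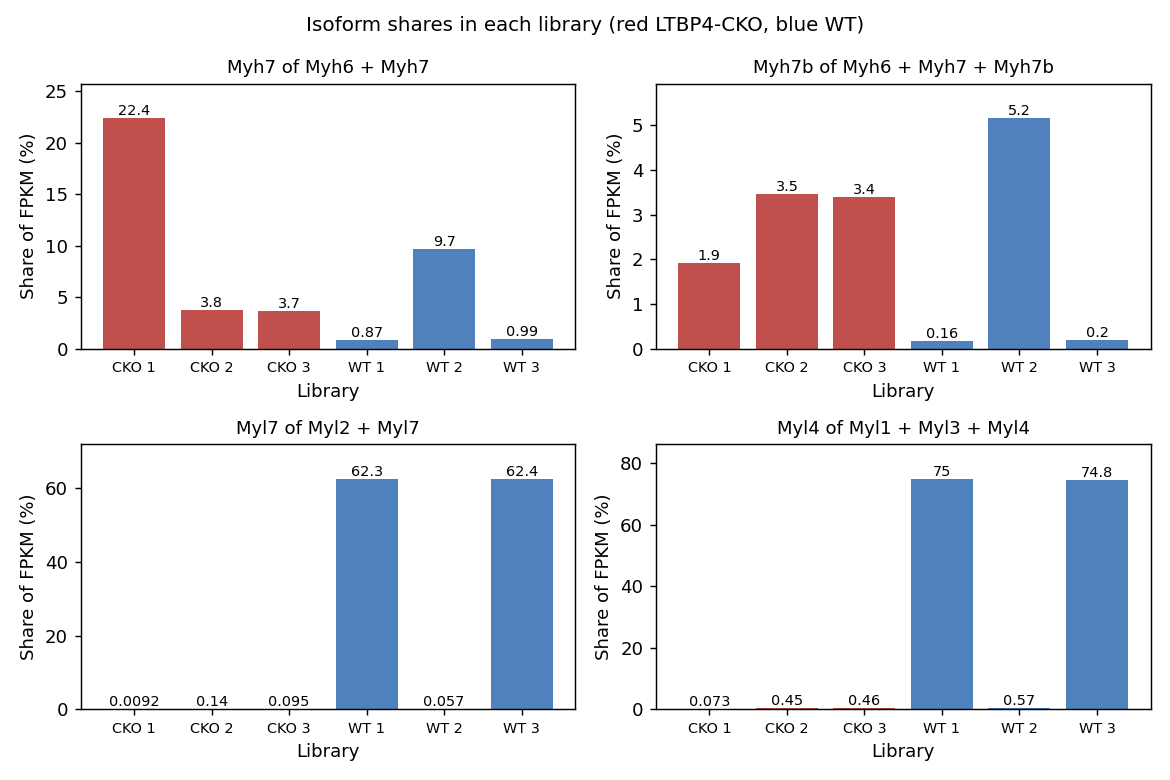
Share of FPKM (%) taken by *Myh7*, *Myh7b*, *Myl7* and *Myl4* among the named isoforms in each library, LTBP4-CKO in red and WT in blue, 1 bar per library and each axis on its own scale. The atrial light chains hold 62.3% to 75.0% in WT libraries 1 and 3 and under 1% in the other 4, while *Myh7* is highest in LTBP4-CKO library 1.

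Of the regulatory light chains, *Myl2* was the most abundant of the 10 genes in LTBP4-CKO libraries and in WT library 2, and *Myl4* was in the WT pair. *Myl2* (chromosome 5, 122100951 to 122113472, plus strand) was at 30483, 10104 and 9968 FPKM in LTBP4-CKO libraries 1 to 3 and at 1337, 10403 and 1337 FPKM in WT libraries 1 to 3. In LTBP4-CKO library 1 it alone took 3.51% of all FPKM, against 0.192% in each library of the WT pair and 1.40% to 1.41% in the other 3. The estimate was 2.23 on the log2 scale (SE 1.12, 95% interval −0.46 to 4.92). WT library 2 lay among the LTBP4-CKO libraries.

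*Myl7*, the atrial regulatory light chain, split the libraries most sharply. *Myl7* (chromosome 11, 5896637 to 5898782, minus strand, 7 exons) was at 2.82, 14.3 and 9.44 FPKM in LTBP4-CKO libraries 1 to 3 and at 2213, 5.91 and 2221 FPKM in WT libraries 1 to 3. WT libraries 1 and 3 were high and the other 4 low, with WT library 2 inside the range of LTBP4-CKO. At the recovered depth the low values were about 12, 26 and 20 fragments in LTBP4-CKO libraries and about 7 in WT library 2. Its log2 fold change was −4.14 (SE 2.71, 95% interval −11.13 to 2.84).

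As a share of *Myl2* + *Myl7*, *Myl7* made up 0.00924%, 0.142% and 0.0946% in LTBP4-CKO libraries 1 to 3 and 62.3%, 0.0568% and 62.4% in WT libraries 1 to 3. In the WT pair *Myl7* thus had a higher FPKM than *Myl2*, and no other library reached a share of 1%. The longest annotated transcripts have 590 bases for *Myl7* and 889 for *Myl2*, so the share depends on how length enters FPKM. The sample means were 0.0638% ± 0.0771 in LTBP4-CKO hearts and 31.2% ± 44.1 in WT hearts (SD, n = 2 each; exact two-sided permutation test, p = 0.667). Without the WT pair the difference was 0.00696 percentage points, in the other direction.

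The essential light chains followed the same split. *Myl3*, the ventricular and slow muscle chain (chromosome 9, 110741861 to 110769798, plus strand), was at 10973, 3394 and 3353 FPKM in LTBP4-CKO libraries 1 to 3 and at 467, 2756 and 477 FPKM in WT libraries 1 to 3. All LTBP4-CKO libraries lay above all WT libraries, by a margin of 3353 against 2756 FPKM at the nearest. Its log2 fold change was 2.41 (SE 1.02, 95% interval −0.03 to 4.85), with the smallest unadjusted p of the 10 genes, and it did not pass (limma, adjusted p = 0.999).

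*Myl4*, the atrial and fetal chain (chromosome 11, 104550663 to 104595753, plus strand), was at 8.11, 15.5 and 15.5 FPKM in LTBP4-CKO libraries 1 to 3 and at 2629, 16.0 and 2560 FPKM in WT libraries 1 to 3. The genotypes did not overlap, yet WT library 2 stood just above LTBP4-CKO libraries 2 and 3, and the WT pair was 163 times above it. Its estimate of −4.10 on the log2 scale had an SE of 2.26 and a 95% interval of −9.78 to 1.58, short of the threshold.

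*Myl1* is the essential light chain of fast skeletal muscle and of the early heart. *Myl1* (chromosome 1, 66924295 to 66945404, minus strand) was at 104, 17.4 and 8.53 FPKM in LTBP4-CKO libraries 1 to 3 and at 411, 25.8 and 386 FPKM in WT libraries 1 to 3. It was high in the WT pair like *Myl4*, and unlike *Myl4* it was also raised in LTBP4-CKO library 1 over the other LTBP4-CKO libraries. Adult skeletal heavy chains did not accompany it, since *Myh4* was listed at 0 in all 6 libraries and *Myh1* and *Myh2* stayed under 0.1 FPKM. The log2 fold change of *Myl1* was −1.43 (SE 1.40).

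*Myl4* held 0.0731%, 0.452% and 0.458% of the 3 essential chains in LTBP4-CKO libraries 1 to 3 and 75.0%, 0.570% and 74.8% in WT libraries 1 to 3. The sample means were 0.264% ± 0.270 in LTBP4-CKO hearts and 37.7% ± 52.5 in WT hearts (SD, n = 2 each). The exact two-sided permutation test gave p = 0.333 with the 4 samples and p = 0.1 with the 6 libraries taken as separate, the smallest each can give (0.857 and 0.3 adjusted over the 9 shares and ratios). Without the WT pair the difference was −0.306 percentage points, against −37.5 with all samples. *Myl1* held 0.941%, 0.507% and 0.253% in LTBP4-CKO libraries 1 to 3 and 11.7%, 0.923% and 11.3% in WT libraries 1 to 3, so *Myl4* outweighed *Myl3* in the WT pair, and *Myl3* outweighed both others in the other 4 libraries.

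Of 9 atrial markers outside the myosin genes, 7 had WT libraries 1 and 3 as the highest 2 libraries, as *Myl7* and *Myl4* did. This count was made after the values were seen, and the share over all tested genes was not counted. *Kcna5*, a potassium channel gene, was lowest in that pair, at 32.3, 130 and 121 FPKM in LTBP4-CKO libraries and at 29.5, 45.5 and 30.9 FPKM in WT libraries, and *Nr2f2*, a transcription factor gene, was highest in LTBP4-CKO library 1, at 16.0 FPKM. Of the 9, 6 were tested, 2 with higher and 4 with lower estimates, and 0 passed. *Mybphl* was not among the 6, since it reached 1 FPKM in the WT pair only. The summed level of the 9 was 382 to 13970.5 FPKM in LTBP4-CKO libraries and 1619 to 33006 FPKM in WT libraries, with *Bmp10* at 0 in 4 libraries and under 1 FPKM in the other 2. *Nppa*, the atrial natriuretic peptide gene that ventricles also make under load, gave most of this sum, at 13882, 233 and 232 FPKM in LTBP4-CKO libraries and at 30529, 1511 and 30706 FPKM in WT libraries. LTBP4-CKO library 1 was thus high in *Nppa* and in *Myh7* while it had the lowest *Myl7*, *Myl4* and *Sln* of all libraries. Of 4 ventricular markers, all tested, 3 had higher and 1 had lower estimates, 0 passed, and 2 were lowest in the WT pair. *Irx4*, a transcription factor gene of the ventricle, was at 24.0, 5.88 and 8.44 FPKM in LTBP4-CKO libraries and at 0.925, 13.6 and 0.887 FPKM in WT libraries. *Hey2*, another ventricular factor gene, did not show that split, at 5.49, 2.10 and 2.06 FPKM in LTBP4-CKO libraries and at 4.61, 3.50 and 3.81 FPKM in WT libraries. The part of chamber content in the genotype estimates was not tested. Leaving out the WT pair also removes everything else in which that pair differed. Without it, the estimates were −0.24 for *Myh6*, −0.25 for *Myh7*, −1.21 for *Myh7b*, 0.51 for *Myl1* and 0.02 for *Myl7*, each with the sign turned. The sign was kept for *Myl2* (0.75), *Myl3* (1.14), *Myl4* (−0.47), *Mybpc3* (0.16) and *Mylk3* (0.09). None passed (limma, lone WT sample assumed to vary like the LTBP4-CKO samples).

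**Figure D3:**
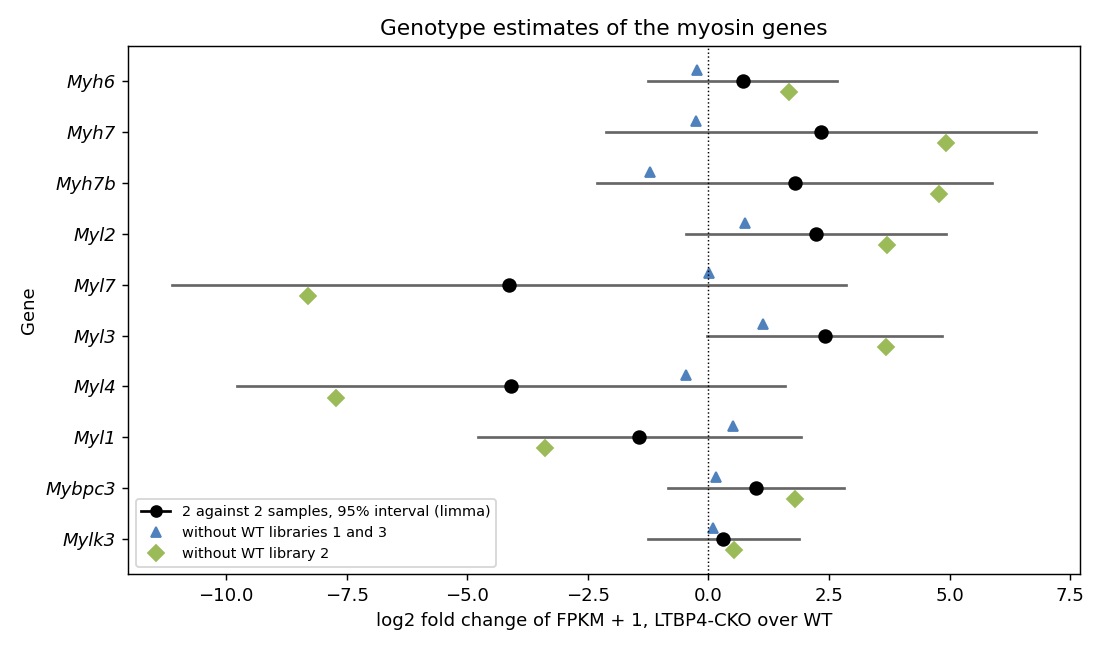
Log2 fold changes of FPKM + 1, LTBP4-CKO over WT, for the 10 genes, with black points for the fit of 2 against 2 samples and its 95% interval, and coloured points for the estimate without WT libraries 1 and 3 (triangles) or without WT library 2 (diamonds). Every interval spans 0, and the *Myl7* estimate is −8.31 without WT library 2 and 0.02 without the WT pair.

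Without WT library 2, 3 of the 10 genes passed. In that fit the WT pair is the lone WT sample, so its spread is not measured and is assumed to be that of the LTBP4-CKO samples. They were *Myl4* (−7.73; limma, adjusted p = 0.00636), *Myl7* (−8.31; limma, adjusted p = 0.0177) and *Myh7b* (4.79; limma, adjusted p = 0.0177), in a fit in which 2 genes rose and 10 fell of all tested. In every other fit 0 of the 10 passed. Across all 18 alternatives *Myl4* ran from −7.73 to −0.47 and *Myl3* from 1.14 to 3.68 without changing sign. *Myl2* (0.75 to 3.71) and *Mybpc3* (0.16 to 1.80) kept their sign as well. By record number the libraries form 2 sets, 2 of each genotype in the first and 1 of each in the second, which are library 3 of both genotypes. The *Myl4* difference was −4.11 in the first set and −7.28 in the second, and that of *Myl3* was 2.43 and 2.81. Since both library 3s belong to close pairs, the second set adds no sample of its own.

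The summed level of the 10 genes was high where other cardiomyocyte genes were high. The 10 genes summed to 46471, 15358 and 15155 FPKM in LTBP4-CKO libraries 1 to 3 and to 7872, 16436 and 7807 FPKM in WT libraries 1 to 3, or 1.12% to 5.36% of all FPKM. Set against the summed level of the 9 cardiomyocyte markers, which include troponin and calcium pump genes, this was 1.34, 1.59 and 1.59 in LTBP4-CKO libraries and 1.42, 1.28 and 1.41 in WT libraries. So the 10-gene sum differed widely between libraries, while its ratio to other cardiomyocyte genes stayed within 1.28 to 1.59. This ratio was computed after the values were seen, and it was not tested.

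*Mybpc3* (chromosome 2, 91118144 to 91136516, plus strand, up to 35 exons in a transcript) kept step with the heavy chains. It was at 1285, 510 and 507 FPKM in LTBP4-CKO libraries 1 to 3 and at 235, 721 and 228 FPKM in WT libraries 1 to 3, with a log2 fold change of 0.98 (SE 0.76). Per FPKM of *Myh6* + *Myh7* it was at 0.368, 0.410 and 0.410 in LTBP4-CKO libraries and 0.419, 0.306 and 0.394 in WT libraries. The ratio averaged 0.389 ± 0.0296 in LTBP4-CKO hearts and 0.356 ± 0.0709 in WT hearts (SD, n = 2 each; exact two-sided permutation test, p = 0.667). The WT samples lay on both sides of LTBP4-CKO library 1.

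The essential chains summed to 0.364, 0.339 and 0.338 per FPKM of regulatory chains in LTBP4-CKO libraries 1 to 3 and to 0.988, 0.269 and 0.962 in WT libraries 1 to 3. The WT pair thus had nearly as much essential as regulatory chain, and the other 4 libraries about a ratio of 0.269 to 0.364 (exact two-sided permutation test of the 4 samples, p = 1.0). The 2 regulatory chains together stood at 8.73, 8.12 and 8.07 per FPKM of *Myh6* + *Myh7* in LTBP4-CKO libraries and at 6.33, 4.42 and 6.15 in WT libraries. All LTBP4-CKO libraries lay above all WT libraries for this ratio, which was added after the values were seen. It averaged 8.41 ± 0.448 in LTBP4-CKO hearts and 5.33 ± 1.29 in WT hearts (SD, n = 2 each; exact two-sided permutation test, p = 0.333 with 4 samples and 0.1 with 6 libraries, the smallest each can give). The longest annotated transcripts have 6113 and 6230 bases for *Myh6* and *Myh7*, and 889 and 590 bases for *Myl2* and *Myl7*, so this ratio depends on how length enters FPKM.

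*Mylk3* (chromosome 8, 85324303 to 85386345, minus strand, up to 13 exons in a transcript) varied least of the 10 genes, by 4.57 times between the highest and the lowest library. It was at 53.9, 11.8 and 13.9 FPKM in LTBP4-CKO libraries 1 to 3 and at 17.9, 25.0 and 18.1 FPKM in WT libraries 1 to 3. LTBP4-CKO library 1 was the highest and its 2 companions the lowest, and the estimate of 0.31 (SE 0.66) turned to −0.68 without LTBP4-CKO library 1. Per 1000 FPKM of its substrate chains, *Mylk3* stood at 1.77, 1.16 and 1.40 in LTBP4-CKO libraries and at 5.04, 2.40 and 5.09 in WT libraries. LTBP4-CKO libraries were all lower, with sample means of 1.52 ± 0.345 in LTBP4-CKO hearts and 3.73 ± 1.89 in WT hearts (SD, n = 2 each). The exact two-sided permutation test gave p = 0.333 with 4 samples and 0.1 with 6 libraries, the smallest each can give. *Mylk3* itself overlapped between genotypes. The substrate chains it was divided by summed to 30486, 10119 and 9977 FPKM in LTBP4-CKO libraries and to 3550, 10409 and 3558 FPKM in WT libraries.

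**Figure D4:**
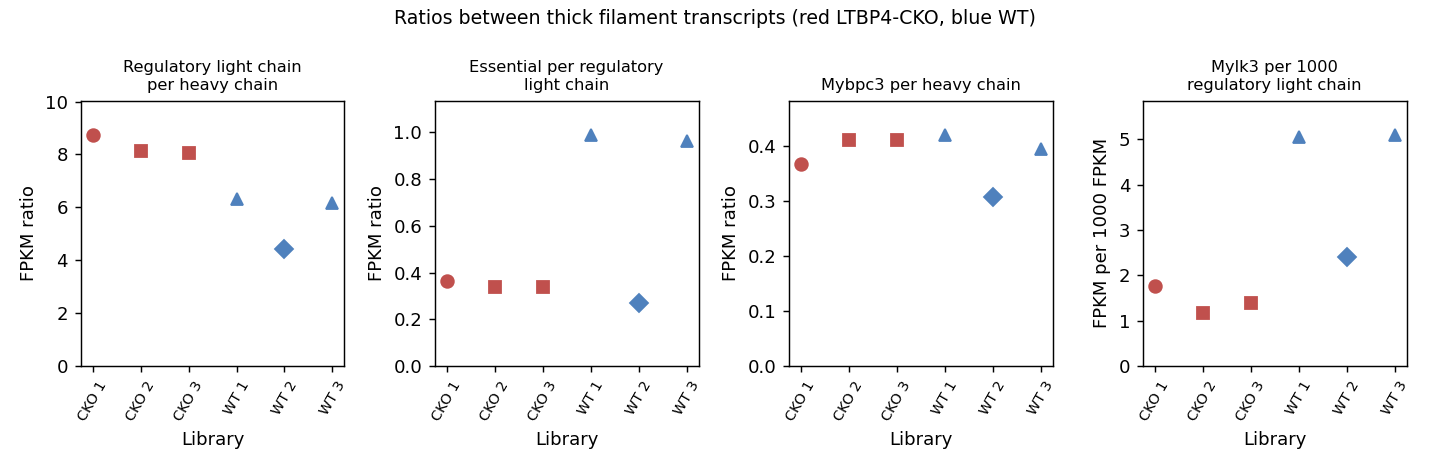
Ratios of FPKM between thick filament genes in each library, LTBP4-CKO in red and WT in blue, with 1 marker shape per sample and axes from 0. Regulatory light chain per heavy chain is 8.07 to 8.73 in LTBP4-CKO and 4.42 to 6.33 in WT, while *Mybpc3* per heavy chain overlaps between genotypes.

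Other genes of the pathway gave no call either. Of 11 genes of thick filament assembly and the M-band, 10 were tested, 9 had higher and 1 lower estimates, the median was 0.61, and 0 passed. *Smyd1*, a muscle methyltransferase needed for sarcomere assembly, had an estimate of 1.34, and *Myom1*, an M-band gene, of 0.82. None of the 10 had an unadjusted p under 0.05. Of 17 genes that set light chain phosphorylation, 16 were tested, with 12 higher and 4 lower estimates, a median of 0.23, and 0 passing or with an unadjusted p under 0.05. *Mylk4*, a muscle kinase related to *Mylk3*, was at 7.58, 1.39 and 1.76 FPKM in LTBP4-CKO libraries and at 1.27, 1.32 and 1.75 FPKM in WT libraries, so its estimate of 0.96 came from LTBP4-CKO library 1.

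Of 25 genes known to act on the choice of heavy chain, 21 were tested, with 12 higher and 9 lower estimates, a median of 0.16, 0 passing and 2 with an unadjusted p under 0.05, *Dio2* and *Srf*, where 374 of 12485 tested genes had one. Thyroid hormone raises *Myh6* and lowers *Myh7* in rodent hearts. *Dio2*, which encodes the enzyme that activates thyroid hormone in tissues, was at 3.87, 3.84 and 3.90 FPKM in LTBP4-CKO libraries and at 21.6, 6.95 and 17.5 FPKM in WT libraries, with an estimate of −1.39 (SE 0.51). *Thrb*, a thyroid hormone receptor gene, was at 1.80, 1.03 and 0.576 FPKM in LTBP4-CKO libraries and at 4.22, 1.86 and 5.14 FPKM in WT libraries (−0.84), while the receptor gene *Thra* overlapped. *Srf*, which encodes the factor that binds CArG boxes, was at 27.1, 31.8 and 33.0 FPKM in LTBP4-CKO libraries and at 13.8, 15.4 and 13.7 FPKM in WT libraries (0.98, SE 0.34). *Tead1*, whose product binds CATTCC, had an estimate of 0.57. All LTBP4-CKO libraries lay above all WT libraries for 5 of the 21 genes, *Srf* and *Tead1* among them, against 10.4% of all tested genes. They lay below for 2, *Dio2* and *Thrb*, against 11.5% of all tested genes, and none of the 7 passed (limma, adjusted p = 0.999 for each).

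Genes with the most similar pattern were sought over the 6 libraries among 7042 genes with a mean of at least 10 FPKM. Since close libraries make up most of the 6, the correlation describes the libraries and has no test. For *Myh7* they were *Hrc*, *Ubr2* and *Ptges3l* (Pearson's r = 0.999, 0.998 and 0.997). For *Myl2* they were *Jph2*, *Ckm* and *Mical3* (r = 0.999 for each). For *Myl7* they were *Golga7*, *Txndc5* and *Sh3bgrl* (r = 0.998, 0.998 and 0.997), genes whose levels differed by far less, as with *Golga7* at 46.2, 51.9 and 51.6 FPKM in LTBP4-CKO libraries and at 86.3, 50.4 and 86.8 FPKM in WT libraries.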

How the data were processed

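Libraries were made from total RNA with an Illumina TruSeq kit, per the labels' protocols. The authors deposited FPKM values with 1 column per library, per the file headers, made with Cufflinks on build mm10, per the submitters' processing notes; the sources used here do not give the aligner, the annotation or the read length. The 10 genes, the gene lists and the tests were chosen with earlier results of these data known. Libraries were compared on fragments recovered from low FPKM of 2966 genes with 1 annotated transcript, at an assumed fragment length of 280 bases; of such values, 75.0% to 80.7% per library were whole within 0.15. Of 15 pairs, 2 differed by 1.28 to 1.71 times the counting variance and the other 13 by 40.8 to 95.2 times among the deepest genes, and the 2 close pairs were averaged.

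All 12485 genes with 1 FPKM or more in 3 or more libraries were fitted as log2(FPKM + 1) with limma 3.58.1 in R 4.3.3 (trend and robust, 2 residual and a median of 4.55 prior degrees of freedom), with Benjamini-Hochberg adjustment and a threshold of 0.05. A fold change on this scale understates low genes. Shares and ratios were tested by exact permutation (scipy 1.17.1). Gene positions are from GENCODE M21, which uses the same build; all 10 genes matched a RefSeq promoter entry, and that of *Myl2* lay 7791 bases from the deposited start and is not shown. Named genes were the 10, *Ltbp4*, up to 4 genes of a list by smallest p and the 3 genes closest in pattern. *Esr1*, and list members outside these such as *Mybphl*, *Bmp10*, *Nppa*, *Nr2f2* and *Thra*, were named after their values were seen. Alternatives were other pseudocounts, filters and scalings, plain eBayes, the 6 libraries as separate samples, and leaving out libraries.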

Additional observations from a re-analysis of the deposited data

How the results depend on the processing

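Of 180 alternative estimates of the 10 genes, 170 kept their direction and stayed short of the threshold, 7 turned and 3 newly passed. The scalings turned none. Scaling to equal totals moved the median of all genes to −0.08, against 0.04. Leaving out libraries or samples, log2 estimates ran from −0.24 to 1.67 for *Myh6*, −0.25 to 4.93 for *Myh7*, −1.21 to 4.79 for *Myh7b*, −3.38 to 0.51 for *Myl1* (0.02 without LTBP4-CKO libraries 2 and 3), −8.31 to 0.0211 for *Myl7* and −0.68 to 1.31 for *Mylk3*. *Myl4* was −7.73 without WT library 2. Over the fits that leave out a library or sample, 0 to 3 of the 10 genes passed, and over all genes 1 to 2 passed higher and 0 to 10 lower; with no filter on low values 0 passed higher, and with 6 separate libraries 1 passed lower. Leaving out libraries, the *Myh7* share difference ran from −1.57 to 17.1 percentage points, that of *Myl7* from −62.3 to 0.00696, that of *Myh7b* from −2.49 to 2.49, *Mybpc3* per heavy chain from −0.0178 to 0.0824, and essential per regulatory chain from −0.624 to 0.0823. The directions of the *Myl4* and *Myl1* shares, of *Mylk3* per regulatory chain and of regulatory per heavy chain held in all alternatives. Whether the replicate numbers pair the samples could not be decided, since the close pairs leave 2 samples a group. Correlations were 0.116, 0.125 and −0.098 for same-numbered libraries and −0.127 to 0.113 for different-numbered ones. With the replicate number as a block on 6 libraries 1 gene passed higher, 0 lower and 0 of the 10. The causes were not tested. Low fragment numbers limit *Myl7* outside WT libraries 1 and 3, and *Myh7b* in them.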

Other observations

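Of 22 other myosin chains and binding proteins, 11 were tested, 6 with higher and 5 with lower estimates, and 0 passed or had an unadjusted p under 0.05 (limma). The non-muscle heavy chain gene *Myh9* was at 35.3, 159 and 162 FPKM in LTBP4-CKO libraries 1 to 3 and at 42.3, 59.3 and 46.4 FPKM in WT libraries 1 to 3, and *Myh10*, another non-muscle chain, at 8.10, 24.1 and 23.7 FPKM in LTBP4-CKO libraries and at 8.88, 7.93 and 9.20 FPKM in WT libraries. Both were highest in LTBP4-CKO libraries 2 and 3. *Myh14*, also a non-muscle chain, was lowest in the WT pair like *Myh6*, at 16.1, 6.25 and 6.96 FPKM in LTBP4-CKO libraries and at 3.80, 17.9 and 3.86 FPKM in WT libraries, and *Mybpc2*, a skeletal myosin binding protein gene, was so too, at 8.11, 4.34 and 5.77 FPKM in LTBP4-CKO libraries and at 2.30, 16.2 and 2.30 FPKM in WT libraries. The smooth muscle heavy chain gene *Myh11* was at 16.3, 62.8 and 64.6 FPKM in LTBP4-CKO libraries and at 24.1, 97.6 and 24.4 FPKM in WT libraries, and the smooth muscle light chain gene *Myl9* was at 97.6, 390 and 404 FPKM in LTBP4-CKO libraries and at 300.4, 480 and 279 FPKM in WT libraries. Of 6 smooth muscle markers, 5 had lower estimates and 0 passed. *Myl12a* was the only one of the 11 with all LTBP4-CKO libraries above all WT libraries, which held for 10.4% of all tested genes.

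Of 9 skeletal muscle markers, 3 were tested, 1 with a higher and 2 with lower estimates, and 0 passed. WT libraries 1 and 3 were the highest 2 for 1 of the 9, *Tnnt3*. *Tnnt3*, which encodes fast skeletal troponin T, was at 2.19, 2.16 and 2.90 FPKM in LTBP4-CKO libraries and at 24.0, 3.37 and 22.3 FPKM in WT libraries. *Mylk2*, the skeletal myosin light chain kinase gene, was at 0.756, 0.379 and 0.392 FPKM in LTBP4-CKO libraries and at 15.8, 0.816 and 15.0 FPKM in WT libraries. *Mylpf*, the fast skeletal regulatory light chain gene, was not high there, at 3.50 to 5.47 FPKM in LTBP4-CKO libraries and 1.11 to 6.71 FPKM in WT libraries. *Tnni2*, the fast skeletal troponin I gene, was at 4.41, 0 and 3.04 FPKM in LTBP4-CKO libraries and at 1.87, 2.73 and 3.64 FPKM in WT libraries, and *Actn3*, *Pvalb* and *Atp2a1* were under 1 FPKM in all 6. *Mylk2* comes from the phosphorylation list and was picked out with its values known, as were *Myh14* and *Mybpc2*.

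Of 8 stress genes tested, 3 had higher and 5 lower estimates, with a median of −0.02. *Acta1*, the skeletal actin gene that loaded hearts re-express, was at 1617, 437 and 441 FPKM in LTBP4-CKO libraries and at 97.7, 1167 and 93.0 FPKM in WT libraries. *Nppb*, the B-type natriuretic peptide gene, was at 1046, 122 and 134 FPKM in LTBP4-CKO libraries and at 640, 250.2 and 605 FPKM in WT libraries, so that the WT pair lay above WT library 2 for *Nppb* and below it for *Acta1* and *Myh7*. Of the marker lists of other cells, all 5 tested macrophage genes were lower in every LTBP4-CKO library than in any WT library. So were all 5 adipocyte genes, where 11.5% of all tested genes were. All 6 fibroblast genes had lower estimates, and 4 of 5 endothelial genes had higher ones. *Tbx3* was the only tested conduction gene of 4 (0.86). Untested *Isl1* was at 0 in all LTBP4-CKO libraries and at 3.83, 0.363 and 3.82 FPKM in WT libraries. Untested *Shox2* was at 0, 0.256 and 0.227 FPKM in LTBP4-CKO libraries and at 0.409, 1.23 and 0.655 FPKM in WT libraries. *Hcn4*, also untested, was at most 0.048 FPKM. In these lists 0 genes passed (limma). An unadjusted p under 0.05 was found for 5 adipocyte genes, 1 fibroblast gene and 1 endothelial gene, and for 374 of 12485 genes tested.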
